A study of Mus musculus with 6 samples.

Results

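The genes described here are 7 neighbours on mouse chromosome 6 around Nanog: Apobec1, Gdf3, Dppa3, Nanog, Slc2a3, Foxj2 and Necap1. They were chosen by gene symbol as the rows of the deposited expression table for this locus, and all 7 were found among its 18518 gene symbols. RNA was sequenced from E14Tg2A cells, an established embryonic stem cell line of the mouse, in 3 wild-type (WT) libraries and 3 libraries of cells with the Bach1 gene disrupted (BACH1-KO). Both groups had 2 days in serum medium with β-mercaptoethanol and 200 units/ml of murine leukemia inhibitory factor (LIF), the cytokine that sustains self-renewal of these cells. The knockout was made with CRISPR/Cas9 from a transiently transfected lentiCRISPR plasmid, followed by puromycin and sorting of single-cell clones. The labels do not say how many clones the 3 knockout libraries represent, nor whether the WT cells went through transfection, selection and sorting. No label says that libraries of a group came from separate cultures, so the spread behind each p-value is that of these libraries alone and may be technical. The sample titles differ within each group, and some share an ending across the groups, but no label says what an ending means and no column of the table carries one. The series asks how BACH1, a heme-regulated transcription factor, bears on LIF signalling and on self-renewal of these cells.

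NANOG is a homeodomain transcription factor that holds embryonic stem cells in the undifferentiated state together with OCT4 and SOX2. Its gene lies in a conserved block with Gdf3 and Dppa3, which are also active in pluripotent cells and the early germline, while the other genes of the block serve functions outside the pluripotency network. DPPA3, also called STELLA, protects the maternal genome in the zygote and keeps the maintenance methylation factor UHRF1 away from DNA. GDF3 is a TGF-β family ligand that acts with the NODAL co-receptor, and SLC2A3 is the high-affinity glucose transporter GLUT3.

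On build mm10 the block runs from 122577792 to 122888941 on chromosome 6, a span of 311.1 kb. Apobec1 (122577792 to 122602444), Gdf3 (122605403 to 122610087) and Slc2a3 (122727809 to 122801640) are on the minus strand. Dppa3 (122626410 to 122630272), Nanog (122707489 to 122714633), Foxj2 (122819914 to 122845366) and Necap1 (122874474 to 122888941) are on the plus strand. The gap between Dppa3 and Nanog, 77.2 kb, is the widest between neighbouring members, and the others measure 3.0 to 29.1 kb. All 7 genes are protein-coding in GENCODE M21.

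Values are FPKM, a fragment count corrected for transcript length and library total, so each is a share of its library. Absolute depth is unknown. Steps between low values gave relative depths of 1.00 to 1.11 for the WT and 1.01 to 1.18 for the knockout libraries, with the first WT column as the unit. Libraries of the same group correlated at a Pearson's r of 0.991 to 0.994 over the tested genes, which are not independent replicates, and those of different groups at 0.929 to 0.935. Bach1 transcript, from the targeted gene on chromosome 16, stood at 7.97, 8.39 and 8.47 FPKM in WT and at 10.5, 10.4 and 10.4 FPKM in knockout, which does not check the genotype, since an edited gene can still be transcribed. All 12 embryonic stem cell markers were tested and expressed in both groups, with a sum of 10744 to 11526 FPKM (WT) and 7026 to 7278 FPKM (knockout) (9 lower, 3 higher). The 14 hepatocyte markers together reached 11.1 to 16.9 FPKM (WT) and 893 to 922 FPKM (knockout), with 13 of 13 tested higher. Except for Trf (10.1 FPKM in WT), those tested reached the required mean of 1 FPKM only through the knockout libraries. For them only a rise could be called. Afp, a defining marker of fetal liver cells, was listed at 0 in each knockout library. Fibroblast feeder markers summed to 24.9 to 25.7 and 13.1 to 13.8 FPKM, mostly Thy1 (18.8 ± 0.550 and 10.2 ± 0.190 FPKM), where 2 of 11 were tested and both were lower. Of the 9 not tested, the knockout libraries lay above the WT libraries in 6, below them in 2 and overlapped in 1. Their means were at most 1.56 FPKM in WT and 0.764 FPKM in knockout. Col3a1 and Lum were listed at 0 in WT and S100a4 at 0 in knockout. Primitive endoderm markers summed to 14.5 to 15.7 and 6.20 to 7.30 FPKM, with 2 of 3 tested lower. In bulk RNA a change in the number of cells of a type and a change in RNA per cell cannot be told apart.

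In all, 6 of the cluster genes were higher in the knockout cells and the remaining one, Foxj2, was lower. Dppa3 stood apart in size: it rose 5.16-fold and Apobec1 1.98-fold, and the other members moved by at most 29.8%. All 7 passed an adjusted p under 0.05 in limma, a linear model fitted over 12187 genes on log2(FPKM + 1), and 77.0% of all genes tested did so as well. Higher calls made up 37.3% and lower calls 39.7% of the genes tested. In all 7 the libraries of the 2 groups did not overlap, as in 79.3% of the genes tested. The shares called in either direction and without overlap are close to the whole table's, so those counts are not a result about the cluster. By direction the members, with 6 higher and 1 lower, were not close to the table's shares. Of the 570 tested genes of chromosome 6, 59.6% were higher and 17.4% lower. The median log2 fold change was 0.27 over the members and -0.01 over all tested genes. Tested against a fold change of 1.5, 2 of 7 members passed, Dppa3 (adjusted p = 1.89e-07) and Apobec1 (adjusted p = 0.0256), where 19.0% of all genes did.

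**Figure D1:**
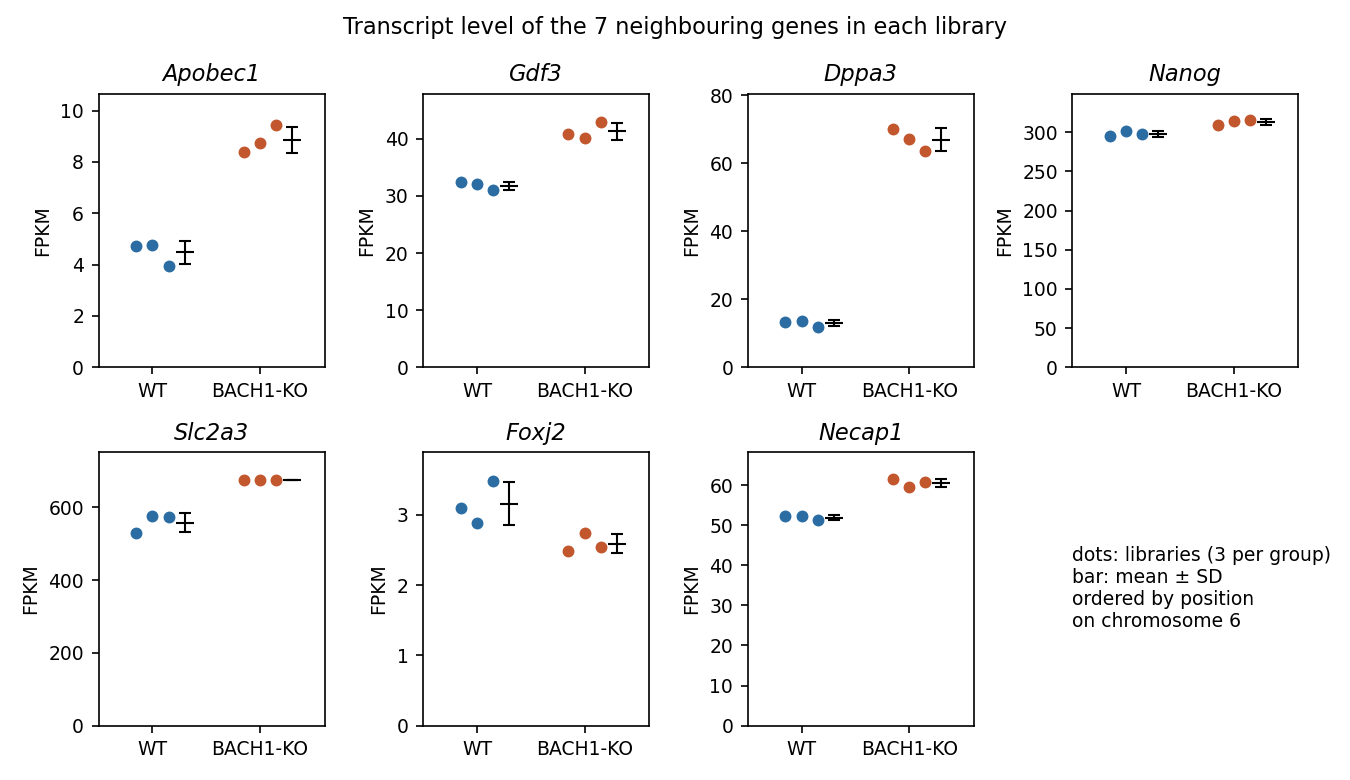
FPKM (vertical axes, each from 0) of the 7 genes in the 3 WT (blue) and 3 BACH1-KO (orange) libraries, ordered by position, with mean ± SD as bars. Dppa3 lies between 11.9 and 13.5 FPKM in WT and between 63.5 and 70.1 FPKM in knockout, while the Nanog groups differ by 4.96%.

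Nanog, the homeobox gene of the pluripotency core, differed little between the groups in FPKM. Its libraries read 295, 302 and 298 FPKM in WT and 309, 315 and 316 FPKM in knockout. Each knockout library was above each WT library, by a margin of a few percent. The means were 298 ± 3.96 and 313 ± 3.68 FPKM (SD, n = 3 per group), 4.96% higher in knockout. On the log2 scale the change was 0.07 (SE 0.027, limma adjusted p = 0.0419). This call was lost without any single library (limma adjusted p from 0.0521 to 0.125) and when the prior variance was held constant (adjusted p = 0.129). After quantile normalization the change was larger, 0.24 (adjusted p = 4.62e-05).

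The promoter of Nanog holds an OCT4 and SOX2 composite element that is a textbook target of those factors, and its sequence is shown here. Both factors' transcripts differed between the groups while Nanog differed by 4.96%, and the part of the element in these values was not tested. The 250 bases before the Nanog start, from RefSeq on GRCm38.p6 (chr6:122707239-122707488, plus strand), read 5′ to 3′ as given here, with the OCT part TTTGCAT and the SOX part ACAATG in capitals. For comparison, the same stretch before Apobec1 (chr6:122602445-122602694, minus strand), the member with the second largest rise, holds neither and has no capitals.
Nanog: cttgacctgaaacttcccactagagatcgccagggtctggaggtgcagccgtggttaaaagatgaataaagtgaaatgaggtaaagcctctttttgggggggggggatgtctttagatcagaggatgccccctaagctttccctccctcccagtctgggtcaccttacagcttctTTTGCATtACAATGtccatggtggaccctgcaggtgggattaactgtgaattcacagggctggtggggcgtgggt
Apobec1: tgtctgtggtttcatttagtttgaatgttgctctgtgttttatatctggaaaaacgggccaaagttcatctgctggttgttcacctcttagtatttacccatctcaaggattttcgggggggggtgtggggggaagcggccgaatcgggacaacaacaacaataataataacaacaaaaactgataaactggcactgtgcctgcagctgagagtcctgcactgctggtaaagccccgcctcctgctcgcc

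In the Nanog window the OCT part lies at -75 to -69 and the SOX part at -67 to -62, counted from the transcript start. Searched on both strands, the OCT part occurred in 4.13% and the SOX part in 10.7% of 32817 such windows of the RefSeq table. The pair in this order with at most 3 bases between occurred in 3 windows, 2 of them the overlapping windows of Nanog. Only these exact letters, which are those of the Nanog element, were searched. Variant forms of the element were not counted, so the count does not say how many promoters carry one. Neither the STAT letters TTCNNNGAA (7.01% of windows) nor the NRF2 and BACH letters TGACNNNGC (10.2% of windows) matched in any window of the 4 members with an entry, which are Nanog, Apobec1, Foxj2 and Necap1. The KLF letters CCACCC (28.1% of windows) matched in the windows of Foxj2, of Necap1 and of a second Nanog start. Dppa3, Gdf3 and Slc2a3 have no entry.

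Against its partners Nanog took a larger place in the knockout cells. Nanog transcript amounted to 22.5, 21.7 and 20.8% of the Pou5f1 level in WT and to 28.0, 28.0 and 28.2% in knockout. Relative to Sox2 it amounted to 86.3, 94.8 and 95.7% in WT and to 136, 146 and 143% in knockout. Neither ratio overlapped between the groups, and an exact two-sided permutation test gave p = 0.1 for each, the smallest p that 3 against 3 libraries allow. The OCT4 gene, Pou5f1, fell from 1377 ± 62.0 to 1115 ± 11.0 FPKM and Sox2 fell from 324 ± 15.4 to 221 ± 5.38 FPKM.

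Among 25 partners and regulators of NANOG, all tested, 17 were lower, 6 were higher and 2 did not pass, with a median log2 fold change of -0.55. The 4 with the smallest adjusted p all fell. Tet1, a 5-methylcytosine oxidase that binds NANOG, fell from 21.7 ± 0.407 to 6.02 ± 0.114 FPKM. Klf4, a naive-state factor, fell from 41.7 ± 2.03 to 7.39 ± 0.607 FPKM. Rif1, a replication timing factor, fell from 52.3 ± 0.411 to 26.2 ± 0.510 FPKM, and Tfcp2l1, a factor of the naive network downstream of LIF, from 20.5 ± 0.241 to 8.01 ± 0.275 FPKM. The higher members, named after their values were seen, were Sall4, Tcf7l1, Zfp281, Nr0b1, Klf2 and Hdac1. Tcf7l1, a known repressor of Nanog that also lies on chromosome 6, rose from 6.75 ± 0.438 to 12.6 ± 0.957 FPKM, and Klf2, a naive-state factor, from 199 ± 5.79 to 327 ± 7.09 FPKM.

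Dppa3 showed the widest difference of the cluster. It was at 13.4, 13.5 and 11.9 FPKM in WT and at 70.1, 67.2 and 63.5 FPKM in knockout. The lowest knockout library was several times the highest WT library. The ratio of means (13.0 ± 0.898 and 66.9 ± 3.33 FPKM) was 5.16, which on the log2 scale was a change of 2.28 (SE 0.058, limma adjusted p = 3.21e-08). Of the 12187 genes tested, 118 had a larger log2 rise. The exact permutation p was 0.1, as for each member, since the groups of none overlapped.

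Near-identical copies limit the reading of Dppa3. In GENCODE M21, the processed pseudogenes Dppa3-ps and Gm47576 match 451 and 450 bases of the 833-base Dppa3 transcript at 98.2% and 91.1% identity. How fragments that fit both places were assigned is not given in the sources used here, and the copies were not analysed here. For the other 6 members no other GENCODE gene matched over 300 or more bases at 90% identity or above.

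The rise of Dppa3 was set beside cell types and factors known for its expression. Of 12 germ cell markers, all tested, 9 rose and 3 fell, with a median log2 fold change of 0.62 and a sum of 138 to 145 FPKM (WT) and 438 to 451 FPKM (knockout). Most of that sum in knockout came from Stra8, the retinoic acid target of meiotic entry, which rose from 22.1 ± 1.98 to 207 ± 5.31 FPKM, and from Sycp3, a synaptonemal complex gene, which rose from 7.75 ± 0.607 to 96.3 ± 1.91 FPKM. Stra8 lies on chromosome 6, like the cluster. Mael, a piRNA pathway gene, rose from 6.53 ± 0.206 to 18.7 ± 0.940 FPKM, and Tfap2c, a germ cell specification factor, from 12.6 ± 1.17 to 29.6 ± 0.700 FPKM. The 3 that fell, named after their values were seen, were Prdm14, Dnd1 and Kit, where the change of Kit was -7.75%. The 9 that rose included Nanos3 (0.894 ± 0.442 to 3.34 ± 0.0452 FPKM) and Prdm1 (2.72 ± 0.13 to 3.63 ± 0.0417 FPKM), also named after their values were seen. Nanos3 was tested only through its knockout values. Genes of primordial germ cells in the list thus moved both ways. The 2-cell-like list holds, besides Eif1a, transcripts of the early embryo that a few cultured stem cells make. It summed to 121 to 131 FPKM in the WT libraries and 124 to 127 in the knockout. Most of both sums was Eif1a (112 ± 3.92 and 98.0 ± 1.13 FPKM), picked with its values known. Eif1a was abundant in every library, so the sums do not describe the other markers of the list. Of 8 tested, 5 were higher, 1 (Eif1a) was lower and 2 did not pass. Among the higher ones, Usp17lb and Usp17le reached the required mean of 1 FPKM only through the knockout libraries. Of the 6 not tested, the knockout libraries lay above the WT libraries in 4 and overlapped in 2. Tcstv1 was listed at 0 in knockout. Among the tested markers that rose, Usp17le went from 0.744 ± 0.0535 to 4.17 ± 0.371 FPKM and Zscan4d from 2.78 ± 0.330 to 6.21 ± 0.315 FPKM. Both belong to multicopy families whose copies share reads. The part of any of these lists in the Dppa3 result was not tested.

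The genes of DNA methylation and DPPA3 partnership moved both ways. Of 15 listed symbols, 14 had a row and 12 were tested: 7 fell, 4 rose and 1 did not pass, with a median log2 fold change of -0.30. The symbol without a row, Ranbp5, is an older name of Ipo5, which has a row. Tet1 fell as given, and Tet2, a related oxidase, fell from 13.0 ± 0.483 to 4.56 ± 0.138 FPKM. Ipo5, a nuclear import receptor, fell from 219 ± 0.748 to 99.9 ± 3.04 FPKM. Nlrp14, an oocyte and germ cell gene, rose from 0.667 ± 0.132 to 5.84 ± 0.574 FPKM, and was tested only through its knockout values. The next 3 genes of the list were picked with their values known. Uhrf1, whose protein DPPA3 binds, fell from 136 ± 3.68 to 103 ± 2.46 FPKM. Dppa2, an activator of germline genes including Dppa3, rose from 60 ± 3.83 to 104 ± 5.51 FPKM, while its partner Dppa4 fell from 149 ± 5.78 to 126 ± 4.76 FPKM.

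Gdf3, the TGF-β family ligand, rose by a smaller step. Its level was 32.4, 32.1 and 31.1 FPKM in WT and 40.8, 40.2 and 43.0 FPKM in knockout. The groups were well apart relative to their spread. The means were 31.8 ± 0.691 and 41.3 ± 1.49 FPKM, 29.8% higher in knockout, with a log2 fold change of 0.37 (SE 0.039, limma adjusted p = 5.18e-05). Dppa3, the next gene along, was at 41.5, 42.2 and 38.4% of the Gdf3 level in WT and at 172, 167 and 148% in knockout, so the order of the pair turned (exact permutation p = 0.1).

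In the NODAL and GDF signalling list 19 of 21 genes were tested: 12 fell, 4 rose and 3 did not pass, with a median log2 fold change of -0.25. Inhba and Acvr1c were listed at 0 in WT. Tdgf1, the co-receptor that GDF3 and NODAL share, fell from 1130 ± 72.0 to 242 ± 6.82 FPKM. Inhbb, an activin subunit, fell from 12.0 ± 0.803 to 1.56 ± 0.0809 FPKM, and Bmp4, a BMP ligand, from 37.5 ± 5.22 to 9.25 ± 0.822 FPKM. Lefty2, a secreted inhibitor of NODAL, fell from 60.4 ± 11.8 to 12.4 ± 0.800 FPKM. The genes that rose, named after their values were seen, included the ligand Nodal (22.7 ± 2.74 to 41.0 ± 0.341 FPKM), the inhibitor Lefty1 (19.8 ± 4.55 to 73.7 ± 5.38 FPKM) and the SMAD partner Foxh1. Gdf3 exceeded Nodal in each WT library (125, 151 and 148% of its level), whereas in knockout the ligands were about even (99.5, 98.8 and 104%).

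Slc2a3, the GLUT3 transporter gene, was the most abundant member in each library. It read 528, 575 and 573 FPKM in WT and 674, 676 and 675 FPKM in knockout. The knockout libraries were almost identical, while 1 WT library, the first column, was lower than the other two. The means were 558 ± 26.6 and 675 ± 1.04 FPKM, 20.9% higher in knockout (log2 fold change 0.27, SE 0.038, limma adjusted p = 2.26e-04). After quantile normalization the change was 0.50. Slc2a1, which encodes the widespread transporter GLUT1, moved the opposite way, from 571 ± 12.5 to 277 ± 4.40 FPKM (limma adjusted p = 5.26e-08). As a result Slc2a3 went from 94.8, 99.9 and 98.7% of the Slc2a1 level in WT to 247, 243 and 240% in knockout (exact permutation p = 0.1).

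Of 18 genes of glucose transport and early glycolysis 11 were expressed enough to test, of which 8 fell, 0 rose and 3 did not pass, with a median log2 fold change of -0.32. At an unadjusted p under 0.05 the count that rose in limma was also 0. Pfkp and Pfkl, subunits of phosphofructokinase, fell from 128 ± 6.34 to 57.9 ± 0.566 FPKM and from 130 ± 6.50 to 80.2 ± 1.08 FPKM. Hk1, a hexokinase, fell from 25.8 ± 1.08 to 13.0 ± 1.00 FPKM. Of the 7 genes too low to test, the 6 glucose transporter genes were higher in every knockout library, with knockout means of at most 0.865 FPKM (Slc2a2, the liver transporter GLUT2) and WT means of at most 0.126 FPKM, and Slc2a9 was listed at 0 in WT. Low values above 0 were more frequent in the knockout libraries in general, with 17276 to 17455 genes above 0 against 16047 to 16159 in WT, and the part of this in such low genes was not tested. Hk2, a hexokinase gene that shares chromosome 6 with the cluster, picked with its values known, fell from 16.3 ± 0.824 to 8.83 ± 0.314 FPKM.

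Apobec1 encodes a cytidine deaminase known for editing Apob messenger RNA in gut and, in mice, liver. It was at 4.71, 4.76 and 3.95 FPKM in WT and at 8.40, 8.75 and 9.42 FPKM in knockout. Every knockout library was well above every WT library. The means of 4.47 ± 0.456 and 8.85 ± 0.518 FPKM gave a ratio of 1.98 and a log2 fold change of 0.85 (SE 0.077, limma adjusted p = 1.91e-05). Hepatocyte markers moved with it: Alb, the albumin gene, picked with its values known like Apob, read 0.0738, 0.701 and 1.39 FPKM in WT and 461, 471 and 471 FPKM in knockout, and Apob itself reached 3.25 ± 0.181 FPKM in knockout. Macrophage and blood cell markers, another known source of Apobec1, came to 24.3 to 30.8 FPKM (WT) and 21.7 to 23.3 FPKM (knockout), nearly all of it Cd68 (26.5 ± 3.38 and 18.5 ± 0.825 FPKM). Of 10 listed, 7 had a row. Of the 2 tested macrophage markers Itgam rose, from 0.498 ± 0.204 to 2.71 ± 0.0980 FPKM, and Cd68 fell, while Csf1r was listed at 0 in WT. Itgam was tested only through its knockout values. Of the 5 too low to test, the knockout libraries lay above the WT libraries in 4 and overlapped in 1, with knockout means of at most 0.521 FPKM. The part of liver or blood cell transcripts in the Apobec1 result was not tested.

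The editing cofactors and relatives of APOBEC1 divided evenly, with 3 higher and 3 lower of 6 tested among 9 listed and a median log2 fold change of -0.09. Apobec2, a relative best known from muscle, rose from 6.47 ± 0.699 to 17.2 ± 2.40 FPKM, and Adar, an adenosine deaminase acting on RNA, from 6.68 ± 0.309 to 9.52 ± 0.571 FPKM. Rbm47, a cofactor of Apob editing, fell from 5.34 ± 0.151 to 2.57 ± 0.204 FPKM, and Adarb1, the second adenosine deaminase of this kind, from 2.66 ± 0.156 to 1.31 ± 0.0463 FPKM. A1cf, the classical cofactor, and Apobec4 were listed at 0 in WT. In each of the 3 genes too low to test, the knockout libraries lay above the WT libraries.

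Foxj2, a forkhead transcription factor gene, was the lowest member and the one that fell. Its libraries were at 3.10, 2.89 and 3.49 FPKM in WT and at 2.48, 2.74 and 2.55 FPKM in knockout. The highest knockout and the lowest WT library were close together. The means were 3.16 ± 0.306 and 2.59 ± 0.136 FPKM (log2 fold change -0.21, SE 0.078, limma adjusted p = 0.0365). The call was lost without the first WT column (adjusted p = 0.0546) or the third (0.123), without the first knockout column (0.103) or the third (0.0897), under median-of-ratios scaling (0.0501) and with no filter on low values (0.0543). Strand use in counting is not given in the sources used here, so reads of Foxj2 and of the antisense gene that overlaps its start cannot be told apart. Among 5 relatives, all tested with a median log2 fold change of 0.10, Foxk2 fell from 19.7 ± 0.703 to 13.3 ± 0.521 FPKM. Foxp1, which also lies on chromosome 6, rose from 4.6 ± 0.322 to 7.16 ± 0.175 FPKM and Foxj3 from 7.68 ± 0.363 to 10.2 ± 0.538 FPKM, and 2 did not pass.

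Necap1, which encodes an adaptor of clathrin-coated vesicles and lies at the far end of the block, rose slightly. It was at 52.2, 52.3 and 51.3 FPKM in WT and at 61.4, 59.4 and 60.7 FPKM in knockout. Both groups were tight and apart from each other. The means were 51.9 ± 0.528 and 60.5 ± 1.03 FPKM, 16.5% higher in knockout (log2 fold change 0.22, SE 0.031, limma adjusted p = 2.87e-04). Its relative Necap2 fell from 16 ± 2.94 to 12.5 ± 0.509 FPKM (picked with its values known). Of 13 clathrin and AP2 endocytosis genes, all tested, 10 fell, 1 rose and 2 did not pass, with a median log2 fold change of -0.34. Cltb, a clathrin light chain, fell from 42.5 ± 1.32 to 14.7 ± 0.744 FPKM, Ap2s1, the small AP2 subunit, from 190 ± 8.71 to 118 ± 3.63 FPKM, and Cltc, the heavy chain, from 83.7 ± 1.59 to 61.4 ± 0.642 FPKM. Fcho2, an early factor of coated pits, fell from 14.6 ± 0.769 to 7.85 ± 0.475 FPKM, and the 1 that rose was the AP2 subunit gene Ap2m1.

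**Figure D2:**
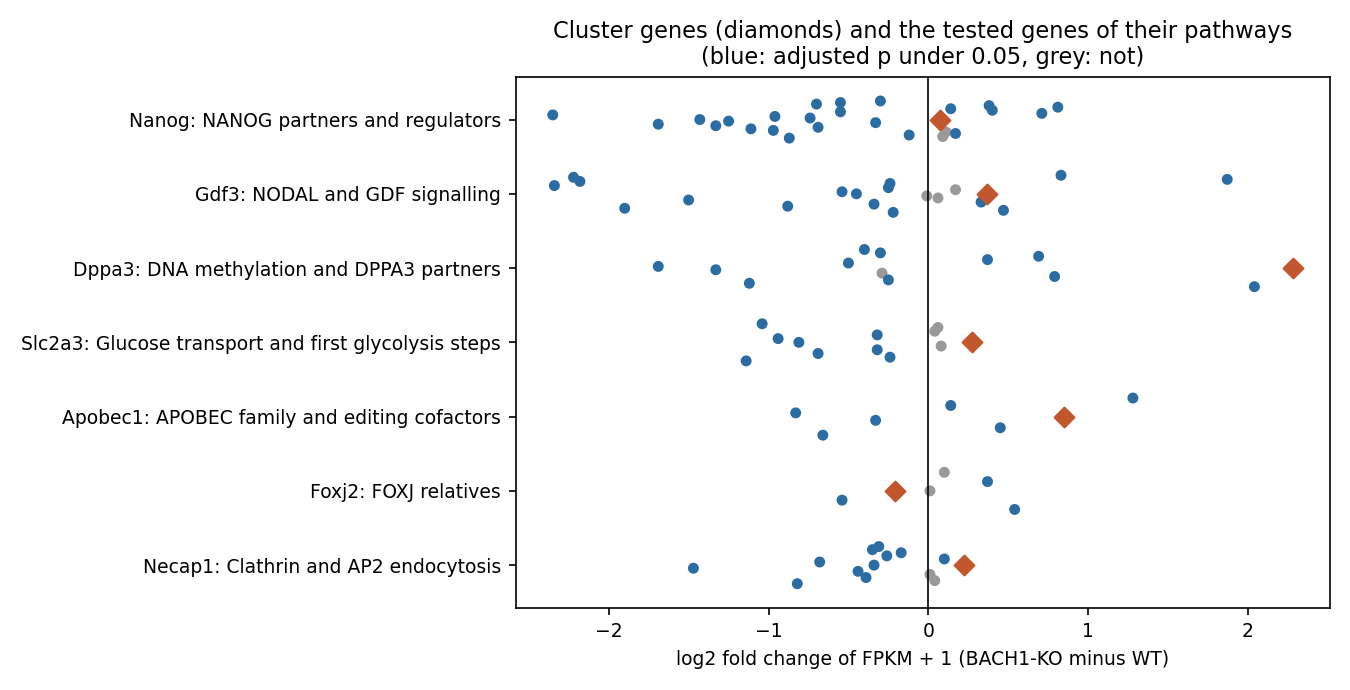
Log2 fold change of FPKM + 1, BACH1-KO minus WT (horizontal axis), of each cluster gene (orange diamond) and the tested genes of its pathway list (dots, blue where adjusted p is under 0.05 and grey where not). Slc2a3 at 0.27 and Necap1 at 0.22 lie to the right of each dot in their rows, whose medians are -0.32 and -0.34.

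The order of the members by level was Slc2a3, Nanog, Necap1, Gdf3, Dppa3, Apobec1 and Foxj2 in WT. In knockout Dppa3 moved ahead of Gdf3 and Necap1 to the third place, and the rest kept their order. No neighbours in either order overlapped in their libraries, the closest in relative terms being Dppa3 (63.5 to 70.1 FPKM) and Necap1 (59.4 to 61.4 FPKM) in knockout. Among all genes of the table, Dppa3 went from the 68.2 to 70.3 percentile of level in WT to the 91.3 to 92.1 percentile in knockout. Nanog stayed between the 98.1 and 98.4 percentile and Slc2a3 between 98.9 and 99.2. Within the block, Dppa3 amounted to 4.56, 4.47 and 4.00% of Nanog in WT and to 22.7, 21.3 and 20.1% in knockout, while Gdf3 amounted to 11.0, 10.6 and 10.4% and to 13.2, 12.7 and 13.6%.

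The cluster lies on the chromosome with the highest median in this comparison. The 563 other tested genes of chromosome 6 had a median log2 fold change of 0.32, and 73.0% of the chromosome's 570 tested genes had a value above 0. On the other 19 chromosomes the median ran from -0.12 to 0.09 and that share from 40.3% to 56.7%. Of the chromosome 6 genes, 340 (59.6%) were higher and 99 (17.4%) lower past the threshold, against 27.1% to 45% higher on the others. In 10 Mb windows along chromosome 6, the median of the genes other than the members was above 0 in all 15 windows, from 0.10 to 0.56, and was 0.25 in the window that holds the cluster. Among genes averaging 100 FPKM or more, the group to which Nanog and Slc2a3 belong, the median was 0.20 over 57 genes of chromosome 6 and -0.22 over 992 genes elsewhere. DNA copy number was not measured in this series, and the part of a chromosome-wide difference in the members' values was not tested.

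**Figure D3:**
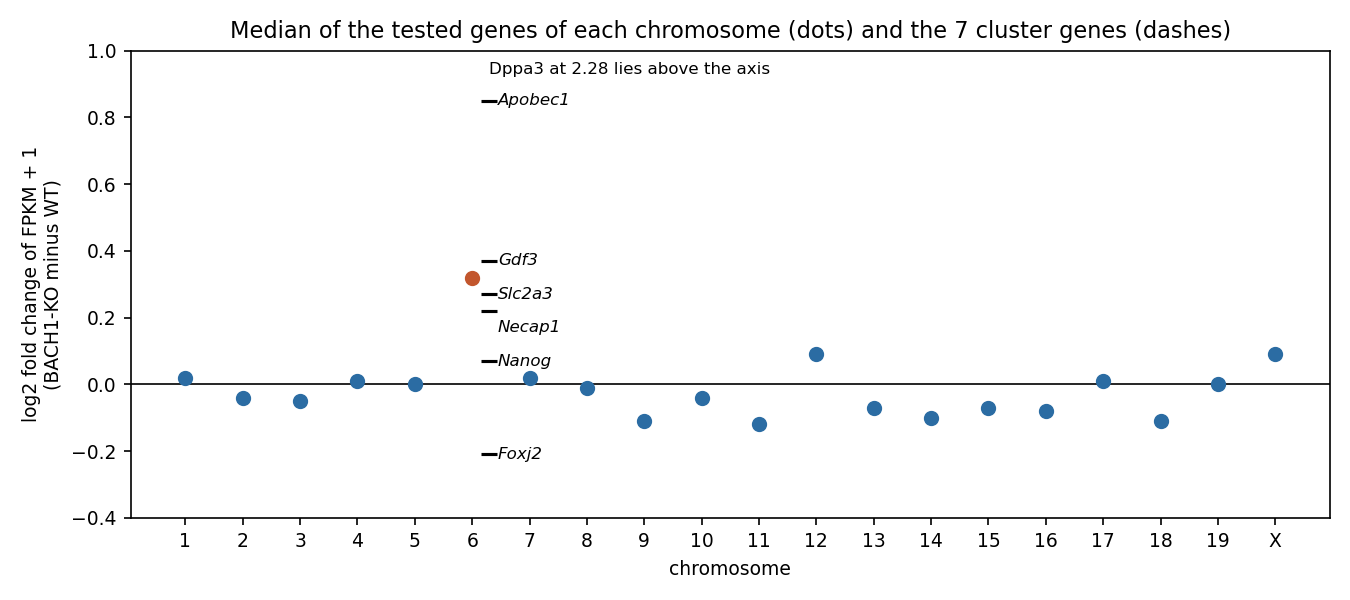
Median log2 fold change of FPKM + 1, BACH1-KO minus WT (vertical axis), of the tested genes of each chromosome (dots, chromosome 6 in orange), with the cluster genes as dashes beside it. Nanog, Slc2a3, Necap1 and Foxj2 lie below the chromosome 6 median of 0.32, Apobec1 and Gdf3 above it, and Dppa3, at 2.28, beyond the axis.

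Set against their own chromosome, the members kept different sides. Nanog, Slc2a3, Necap1 and Foxj2 had log2 fold changes below the chromosome 6 median of 0.32, and Gdf3, Apobec1 and Dppa3 above it. That median was lower among the chromosome's more abundant genes. It was 0.22 over 297 genes averaging 10 FPKM or more and 0.20 over 57 genes averaging 100 or more. Slc2a3 (0.27) was above both of these values, Necap1 (0.22) equalled the first, and Nanog (0.07) was below both. When each library was centred on the median level of the other chromosome 6 genes, which subtracted 0.39, Nanog was lower in knockout by limma (log2 fold change -0.32, SE 0.035, adjusted p = 2.74e-05; 82.5% of all genes passed). Centring on the median gene-wise difference, an alternative added after the data were seen, subtracted 0.30 and gave -0.23 for Nanog (SE 0.026, adjusted p = 4.60e-05; 81.0% of all genes passed). Both centrings lowered every gene alike, so that 20.7% and 25.3% of the genes called were higher, against 48.4% before. Dppa3 remained higher under both, at 1.89 and 1.98, as did Apobec1, at 0.46 and 0.55. Foxj2 remained lower, at -0.60 and -0.51. Gdf3 did not pass the threshold, at -0.02 (SE 0.044) and 0.06 (SE 0.039), with limma adjusted p = 0.643 and 0.169. The first centring subtracted more than the chromosome 6 median change of 0.32, so its values are lower than distances from that median. Slc2a3 was at -0.11 and -0.03 (adjusted p = 0.0431 and 0.475) and Necap1 at -0.17 and -0.09 (adjusted p = 0.00379 and 0.0294). As each centring subtracts the same value from every gene, these directions follow from the uncentred changes and are not separate checks. The rise of Dppa3 and of Apobec1 was larger than the chromosome 6 median change of 0.32, and the difference of Nanog was smaller.

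Genes on either side of the block moved in both directions. Of the 30 nearest rows, 15 on each side, 10 were expressed enough to test, with 6 higher, 3 lower and 1 not past. The 2 outermost of the higher ones on the Apobec1 side, Slc6a13 and Mug1, passed the filter only through the knockout libraries. Over all 30 rows, the knockout libraries lay above the WT libraries in 15 and below them in 3. Phc1, a Polycomb subunit gene, was at 104, 108 and 110 FPKM in WT and 127, 126 and 129 FPKM in knockout. M6pr, its neighbour and a mannose 6-phosphate receptor gene, did not pass, at 127 ± 0.857 and 124 ± 3.62 FPKM. Rimklb, the second tested gene from the Apobec1 end, fell from 21 ± 1.17 to 10.9 ± 0.150 FPKM, while Mfap5, a microfibril gene next to it, rose from 1.45 ± 0.128 to 3.68 ± 0.715 FPKM.

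Farther out on that side, A2m and Mug1, which encode related protease inhibitors of plasma, went opposite ways. A2m fell from 18.8 ± 2.37 to 4.17 ± 0.472 FPKM, and Mug1, a liver transcript, rose from 0.0320 ± 0.0444 to 8.22 ± 0.293 FPKM beside the hepatocyte markers given earlier, whose part was not tested. Mug1 has a close relative next to it, Mug2, so its reads may be shared. Slc6a13, a GABA transporter gene also active in liver, rose from 0.197 ± 0.0299 to 3.36 ± 0.448 FPKM. Beyond Necap1 the next tested genes lie over 1 Mb away. Pex5, a peroxisomal import receptor, fell from 22.6 ± 1.11 to 17.2 ± 0.830 FPKM, Clstn3, a calsyntenin, rose from 11.0 ± 0.659 to 12.3 ± 0.165 FPKM, and C1s1, a complement protease, rose from 5.62 ± 0.277 to 9.13 ± 0.577 FPKM. The 20 rows not tested, among them the Clec4 lectin genes next to Necap1, had group means of at most 0.729 FPKM in WT and 1.25 FPKM in knockout. In 9 of them the knockout libraries lay above the WT libraries, as for Mug2 (0.00472 and 1.25 FPKM), C1ra (0.157 and 1.25 FPKM) and C1rl (0.253 and 1.19 FPKM), picked with their values known. C1ra and C1rl belong to the complement protease group.

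**Figure D4:**
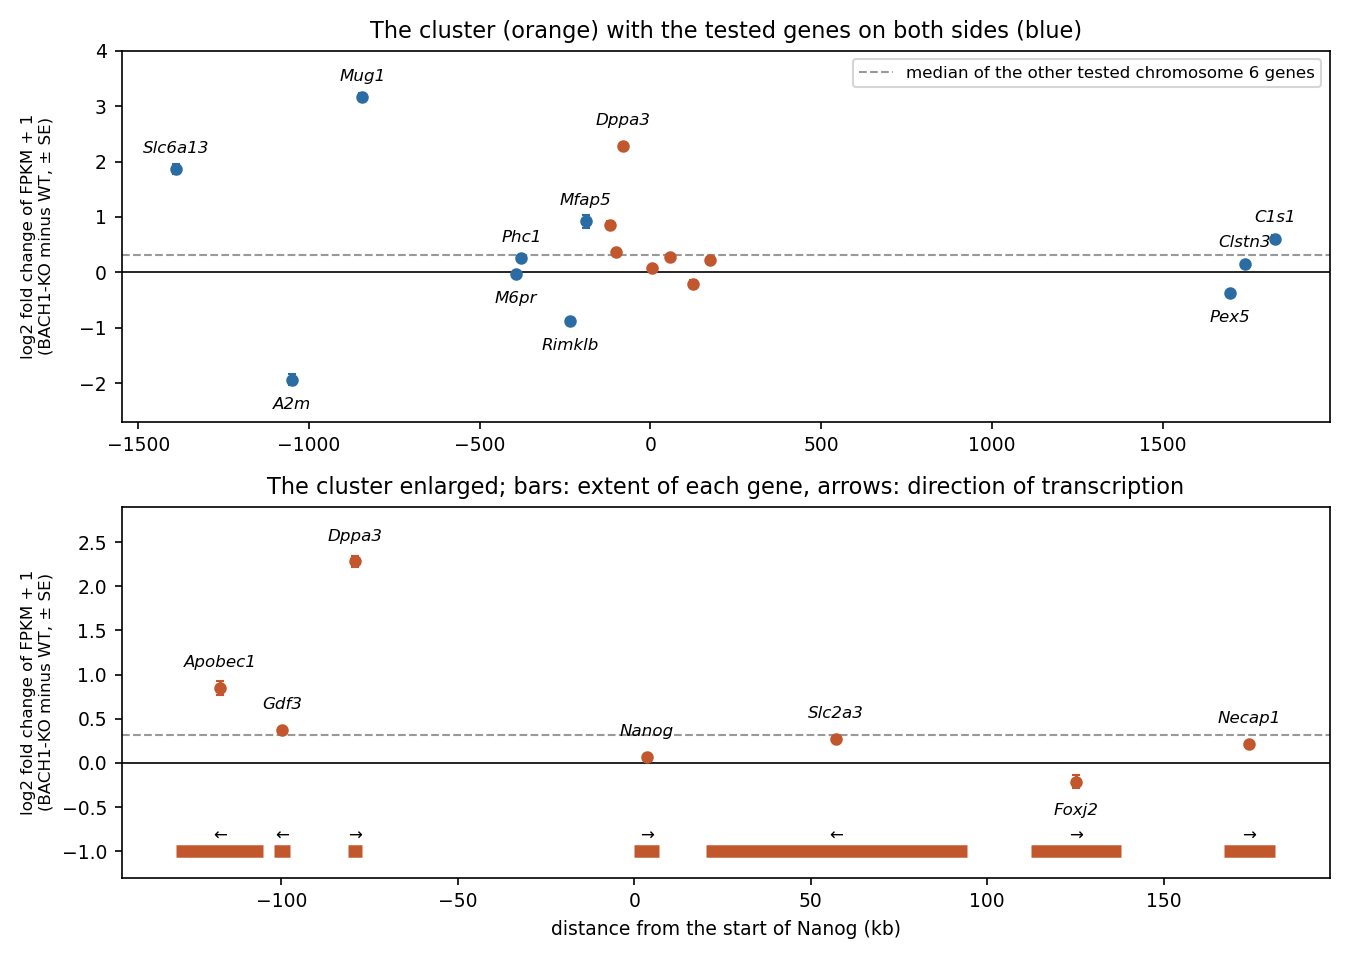
Log2 fold change of FPKM + 1, BACH1-KO minus WT ± SE (vertical axes), against distance from the start of Nanog in kb (horizontal axes), for the cluster (orange) and the 10 tested flanking genes (blue), with the dashed line at the chromosome 6 median of 0.32. Dppa3 at 2.28 stands above both its neighbours, Gdf3 at 0.37 and Nanog at 0.07, and the flanking genes run from -1.94 to 3.16.

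The tested genes with the profile most like each of the 3 pluripotency and germline members were found by the root mean square difference over the 6 libraries of log2(FPKM + 1) less the WT mean. For Nanog, with 1598 genes within 0.1, they included Psmb5 (0.013), a proteasome subunit gene, and Rpn1 (0.015), an oligosaccharyltransferase subunit gene on chromosome 6. For Gdf3, with 910 genes within 0.1, they were Cnot3 (0.015), Top3b (0.016) and Pex7 (0.021). The genes named for Nanog and Gdf3 are thus a few of many with a similar profile. For Dppa3, with 4 genes within 0.1, they were Aadac (0.069), 2810007J24Rik (0.073) and Cfhr2 (0.075), each listed at 0 in the WT libraries and at 3.49 to 4.09 FPKM in knockout. Those 3 passed the filter through the knockout libraries alone, and are near to Dppa3, which was at 13.0 FPKM in WT, only on the scale with 1 added to each value.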

How the data were processed

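Per the submitters' processing notes, Cufflinks and mouse build mm10 were used. The authors deposited FPKM, 1 value per gene symbol and library. The aligner, the annotation and all versions were not given in the sources used here. The 6 columns could be matched to a genotype, not to a sample title, so each was a replicate of its group, with no pairing. Left out were 23 rows with a number for a symbol (0.0987% of the summed FPKM). Genes were placed by GENCODE M21 and RefSeq (GRCm38.p6, the same build as mm10), and 84 of 18518 symbols stayed unplaced. Genes averaging 1 FPKM or more were tested on log2(FPKM + 1), which understates changes of low genes, with limma 3.58.1 in R 4.3.3 (eBayes with trend, two-sided, Benjamini-Hochberg, 3 against 3 libraries). The script was checked on simulated data. Relative depth came from ratios of values under 0.1 FPKM, searched within about 1.5-fold. Copies of member transcripts were sought with BLAST 2.17.0. The text names the 7 members, flanking genes averaging 1 FPKM or more, in each list the called genes with the lowest adjusted p (at most 4), and the 3 nearest profiles. Some of these are not reported here. Further genes are marked as picked or named with their values known. The members and lists were chosen with earlier results of these data known. Alternatives changed the pseudocount, filter, scaling, prior variance, tested fold change and libraries, or centred on chromosome 6.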

Additional observations from a re-analysis of the deposited data

How the results depend on the processing

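Tested against a fold change of 1.5, 2319 of 12187 genes and 2 of 7 members passed. The count of members past the threshold was 5 to 6 without any single library and 5 to 7 under the other alternatives, and all genes past the threshold numbered 8798 to 9344 without a library. The chromosome 6 median of 0.32 was 0.36 and 0.34 with pseudocounts of 0.1 and 0.5, 0.19 with no filter, 0.29 at a minimum of 5 FPKM, 0.34 with median-of-ratios scaling, 0.28 after quantile normalization, and 0.30 to 0.32 without a library. Centring on the level of chromosome 6 turned the direction of Nanog (-0.32), Slc2a3 (-0.11), Necap1 (-0.17), Gdf3 (-0.02), Bach1 (-0.09), Phc1 (-0.14), Clstn3 (-0.24), Foxj3 (-0.02), Psmb5 (-0.32), Rpn1 (-0.31), Cnot3 (-0.03), Top3b (-0.01) and Pex7 (-0.02). Gene-wise centring, added after the data were seen, turned Nanog (-0.23), Slc2a3 (-0.03), Necap1 (-0.09), Phc1 (-0.05), Clstn3 (-0.15), Psmb5 (-0.23), Rpn1 (-0.22) and Bach1 (-0.00). Quantile normalization turned M6pr (0.13) and raised Nanog to 0.24 and Slc2a3 to 0.50. Dppa3 ranged from 1.89 to 2.36 and Apobec1 from 0.46 to 0.97, past the threshold under each of 16 alternatives. Foxj2 had no value at a minimum of 5 FPKM. No paired analysis was possible because the columns cannot be tied to the sample titles, some of which share an ending across the groups. Absolute depth is unknown.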
